A study of Mus musculus with 6 samples.

Results

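The genes described here encode the steps of glycolysis, from glucose entry to lactate export, and of glycogen storage and breakdown, with each enzyme split by isoform. The list holds 36 genes, chosen by name from the pathway, out of 19057 genes that had a probe with a single symbol. Of the 36, 32 had at least 1 probe, with 56 probes in all, and 28 had a probe bright enough to test among 10204 genes tested. Hk2, Gpi1, Pfkfb1 and Eno1 had no probe listed under their symbols and were not analysed here. Pfkfb3, Aldoc, Slc16a1 and Gbe1 had probes that were not well above background on at least 3 arrays.

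The samples were hearts of male C57Bl6 mice, whose age and heart region the labels do not give. The IR group comprised 3 arrays of hearts taken 72 h into reperfusion after the left anterior descending artery had been closed for 90 min (ischemia-reperfusion, IR). The other 3 arrays were of hearts called uninjured in the labels, which state that these mice had no surgery, although the columns of the signal table name the same arrays sham. Those columns carry a number and no replicate number, so the arrays are called A, B and C (IR) and D, E and F (uninjured), in ascending order of that number, and values are given in this order. Nothing states that each array was a separate mouse, and the p-values then reflect array-to-array spread that may be only technical.

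Glycolysis converts glucose to pyruvate in the cytosol, and lactate dehydrogenase reduces pyruvate to lactate when mitochondria do not take it up. Most steps are encoded by several genes: adult striated muscle uses its own subunits of phosphofructokinase, phosphoglycerate mutase and enolase, while other tissues and leukocytes use paralogs. The healthy adult heart burns mainly fatty acids and keeps glycogen as a local glucose reserve.

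Levels are normalized log2 intensities of background-corrected signal plus 16, 1 probe per gene, and each fold change is IR over uninjured on that scale. Changes of dim genes are understated by the added 16. Levels of different genes are not comparable, since each probe binds with its own strength. With 3 arrays a group, array number sets the precision.

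After IR the muscle isoforms of phosphofructokinase, phosphoglycerate mutase and enolase were 5.89-fold to 7.97-fold lower, while Pgam1 and Pfkp, which are used outside muscle, were 2.85-fold and 2.18-fold higher. The leukocyte hexokinase Hk3, detected on 1 of 3 uninjured arrays, was also higher, a direction that the filter on detection had fixed. Of the 28 genes tested, 10 were higher and 13 lower in IR hearts at an adjusted p under 0.05 (limma), and 5 were not called. The same test called 73.9% of all genes, 39.4% higher and 34.5% lower, so the number of members called is near the background. By at least 2-fold, 7 of the 28 were higher and 10 were lower, against 15% and 13.6% of all genes. The members had a median log2 fold change of -0.17, and all genes tested had 0.05. Of 4 genes listed as muscle or heart isoforms, Pfkm, Pgam2, Eno3 and Ldhb, 3 were lower and 1 was not called. Their median log2 fold change was -2.69. Of 5 tested genes listed as ubiquitous or leukocyte isoforms, Hk3, Pfkp and Pgam1 were higher, Pfkl was lower and Ldha was not called. The median of these 5 was 1.12, with Hk3 counted although the filter had fixed its direction. The others had log2 fold changes of 1.51 (Pgam1), 1.12 (Pfkp), -0.09 (Ldha) and -1.05 (Pfkl), so they share no direction. The groups did not overlap in 25 of the 28 members, against 76.7% of all genes. Because a dim gene passes the filter through the group in which it is bright, these counts describe the genes tested and not the whole list.

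**Figure D1:**
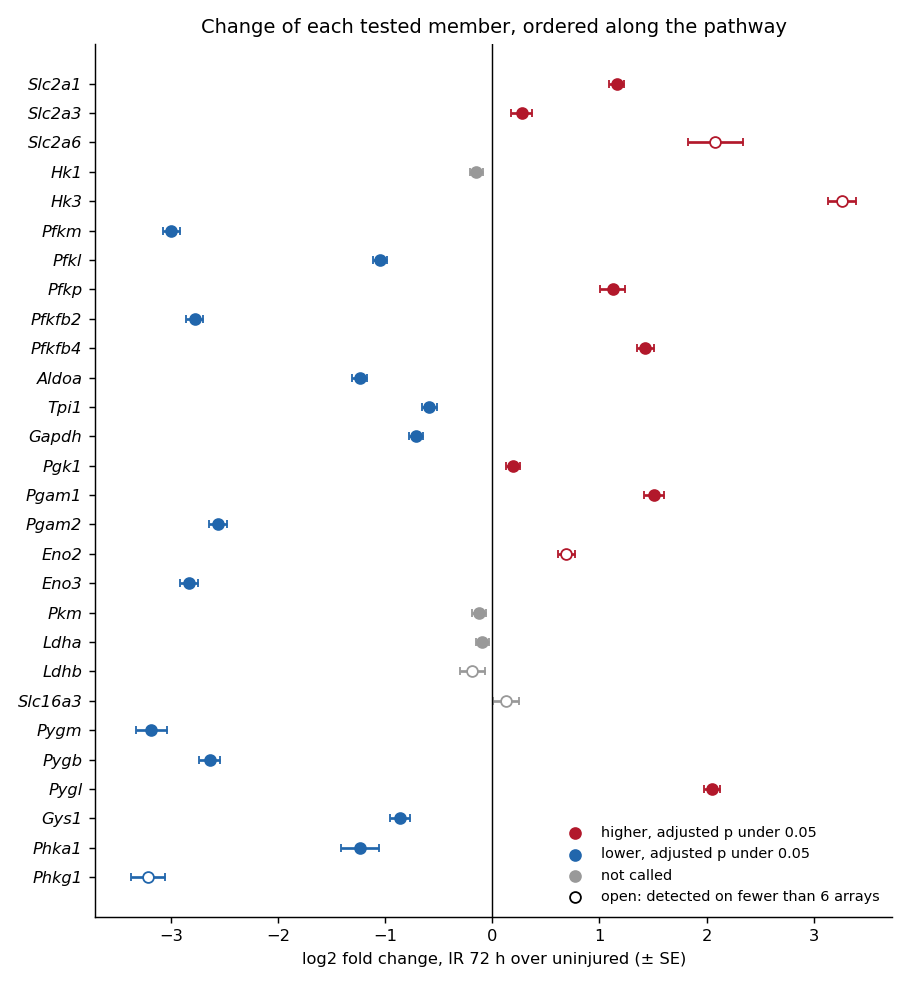
Log2 fold change of each of the 28 tested genes (IR 72 h over uninjured, horizontal axis, ± SE, 3 arrays per group), ordered along the pathway from glucose transport at the top to glycogen enzymes at the bottom. Red points were higher and blue points lower at an adjusted p under 0.05, and grey points were not called. Open points mark genes detected on fewer than 6 arrays, counting any probe of the gene. Gys1 is therefore filled, although its plotted probe was detected on 2 of 3 IR arrays. Open points, among them Hk3 and Phkg1, are fitted against a group partly or wholly not above background. Among filled points, Pygl lies farthest right at 2.05 and Pygm farthest left at -3.18.

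Markers of other cells moved in the same arrays. Of 7 tested macrophage markers, 5 were detected on all 6 arrays, and these 5 were higher after IR, with log2 fold changes from 1.13 for Csf1r to 3.19 for Lyz2. The 6 neutrophil markers were detected on all 3 IR arrays and on at most 1 uninjured array each, so the filter had fixed their direction. Of these, Cxcr2 was at least 2.85-fold higher, and Cxcr2, Mpo and Retnlg were undetected on all uninjured arrays. The summed background-corrected intensity of the macrophage markers was 13195 to 14363 on IR arrays and 1597 to 1924 on uninjured arrays. That of the neutrophil markers was 2451 to 3870 on IR arrays and 27.8 to 67.4 on uninjured arrays, the last from values mostly not above background. Such sums are weighted toward bright probes. In the macrophage sum the brightest was Lyz2, with mean log2 intensities of 13.33 (IR) and 10.14 (uninjured), against 8.52 and 7.39 for Csf1r. Of 7 tested cardiomyocyte markers, each detected on all 6 arrays, 6 were lower (Tnnt2 had no probe listed), with log2 fold changes running from -2.79 for Myh6 to 0.04 for Actc1. Their summed intensity was 45094 to 47075 in IR hearts and 76703 to 79748 in uninjured hearts. Of 6 fibroblast markers detected on all 6 arrays, 5 were higher and Dcn was not called, while Postn was undetected on all uninjured arrays and gives no fold. The sums of all 7 tested fibroblast markers were 14121 to 14245 in IR hearts and 8619 to 8850 in uninjured hearts. The skeletal muscle myosins Myh1 and Myh4 were undetected on all 6 arrays, and Myh2 had no probe listed. Of the same list, Tnni2 had a log2 fold change of 0.81. Tnnt3, undetected on all uninjured arrays, was at least 2.09-fold higher, a direction the filter had fixed. Actn3 was detected on 2 uninjured arrays and 0 IR arrays, and Mylpf on 2 uninjured arrays and 1 IR array. Neither had a probe kept for testing, so the list has no uniform direction. The part of these cell types in the changes below was not tested. In a bulk sample, fewer cells of a type and less RNA per cell cannot be told apart.

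Glucose enters cells through the facilitative transporters. Slc2a1, which encodes the widely expressed transporter GLUT1, had log2 intensities of 9.33, 9.18 and 9.30 on IR arrays A, B and C, against 8.09, 8.09 and 8.15 on uninjured arrays D, E and F. The groups did not overlap, and the level was 2.24-fold higher after IR (log2 fold change 1.16 ± 0.07, SE, adjusted p = 4.22e-06). Slc2a6, a transporter gene expressed in leukocytes, stood at 6.84, 6.68 and 6.74 in IR hearts and at 5.33, 4.37 and 4.32 in uninjured hearts, where only array D detected it. Its log2 fold change was 2.08 ± 0.26 (adjusted p = 0.000204), and array D lay apart from the other uninjured arrays. Slc2a6 passed the filter through the IR arrays, so the filter had fixed its direction and the p-value is no test of it.

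Slc2a3, the high-affinity transporter GLUT3, stood at 6.11, 5.88 and 6.03 in IR hearts and at 5.64, 5.89 and 5.67 in uninjured hearts, so that the groups overlapped at arrays B and E. Its log2 fold change of 0.27 ± 0.10 passed narrowly (adjusted p = 0.0369). The call was lost in 11 of 17 alternative analyses, over which the adjusted p ranged from 7.00e-05 to 0.197. These include leaving out array A (log2 fold change 0.22), C (0.26), D (0.23) or F (0.25).

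Hexokinases trap glucose in the cell by phosphorylation. Hk3, the hexokinase of leukocytes, had log2 intensities of 7.94, 8.04 and 7.80 on the IR arrays and 4.72, 4.86 and 4.40 on the uninjured arrays, of which 1 detected it. Its fitted log2 fold change was 3.27 ± 0.13 (adjusted p = 5.95e-07), and 1.75 without background correction, so its size depends on that step. Hk3 passed the filter through the IR arrays, so the filter had fixed its direction and the p-value is no test of it. Hk1, the widely expressed isoform, stood at 6.47, 6.50 and 6.44 in IR hearts and at 6.57, 6.65 and 6.64 in uninjured hearts. All 3 IR values of Hk1 lay below all uninjured values, yet the difference of -0.15 ± 0.06 did not pass (adjusted p = 0.0645), and it was 0.52 under all-probe median scaling (adjusted p = 0.00144, range over the alternatives 0.00144 to 0.333). The second Hk1 probe gave -0.12.

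Phosphofructokinase commits sugar phosphate to glycolysis, and its muscle, liver and platelet subunits are encoded by Pfkm, Pfkl and Pfkp. Pfkm stood at 9.74, 9.87 and 9.77 in IR hearts, against 12.82, 12.69 and 12.86 in uninjured hearts. It was 7.97-fold lower (log2 fold change -3.00 ± 0.08, adjusted p = 1.48e-07), and its other probes gave -3.48 and -2.85. Pfkp was higher at 9.05, 9.03 and 9.06 in IR hearts, against 7.82, 8.19 and 7.77 in uninjured hearts (log2 fold change 1.12 ± 0.12, adjusted p = 7.71e-05), and a second probe gave 0.95. Pfkl, although used in many tissues, was lower: 8.99, 8.91 and 9.02 in IR hearts, against 10.02, 9.96 and 10.08 in uninjured hearts, or -1.05 ± 0.07 (adjusted p = 6.02e-06). A dim second Pfkl probe gave -0.13 (adjusted p = 0.252 over all probes kept), so the probes differ in size.

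The bifunctional Pfkfb enzymes make and break down an allosteric activator of phosphofructokinase. Pfkfb2, the heart isozyme, stood at 5.77, 5.66 and 5.76 in IR hearts and at 8.50, 8.61 and 8.41 in uninjured hearts, 6.86-fold lower (log2 fold change -2.78 ± 0.08, adjusted p = 1.84e-07). Its second kept probe, detected on 1 IR array, gave -0.68. Pfkfb4, an isozyme induced by low oxygen in many cell types, moved the other way, with 7.93, 7.96 and 7.91 in IR hearts and 6.42, 6.65 and 6.46 in uninjured hearts (log2 fold change 1.43 ± 0.08, adjusted p = 3.01e-06). Pfkfb3, the inducible isozyme, had deposited signals of 90.1, 91.6 and 88.6 on IR arrays and 82.9, 94.4 and 81.8 on uninjured arrays, and only array E detected it.

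**Figure D2:**
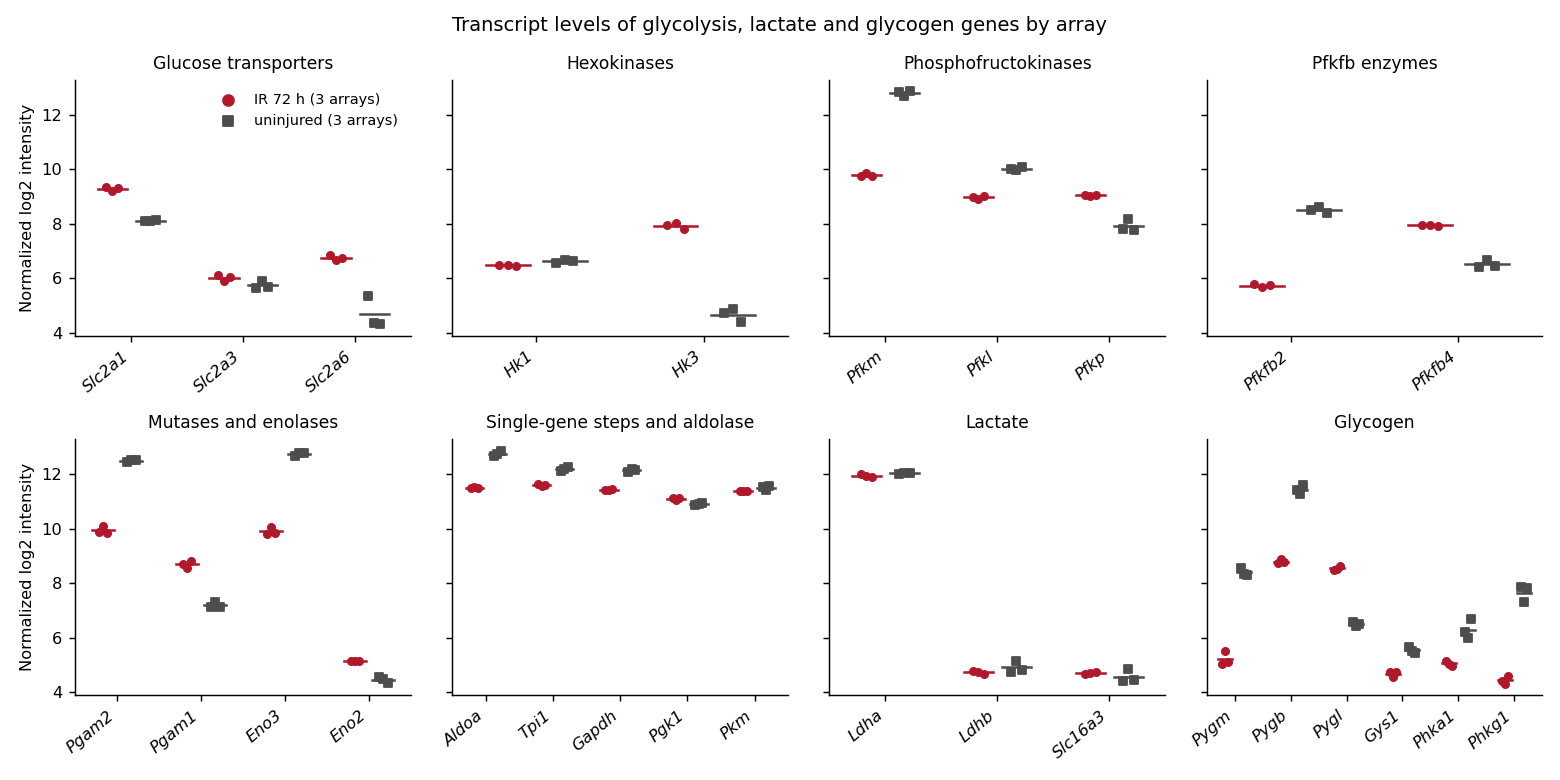
Normalized log2 intensity (vertical axis) of the 28 tested genes on each array, in 8 panels by pathway step, with IR 72 h hearts as red circles and uninjured hearts as grey squares (3 arrays each) and horizontal lines at the group means. Levels compare between groups within a gene, not between genes. Pfkm, Pgam2 and Eno3 are lower on all 3 IR arrays, and Hk3, Pfkp and Pgam1 are higher. For Hk3 the filter on detection had fixed that direction.

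Of the steps with a single main gene, those of Aldoa, Gapdh and Tpi1 were lower after IR and that of Pgk1 was slightly higher. Aldoa, the aldolase of muscle and most other tissues, stood at 11.50, 11.52 and 11.50 in IR hearts and at 12.66, 12.74 and 12.84 in uninjured hearts (log2 fold change -1.24 ± 0.07, adjusted p = 2.98e-06). Gapdh, often used as a reference gene, was 1.64-fold lower at 11.42, 11.42 and 11.45 in IR hearts, against 12.06, 12.20 and 12.16 in uninjured hearts (adjusted p = 4.59e-05). Tpi1, triosephosphate isomerase, stood at 11.64, 11.56 and 11.61 in IR hearts and at 12.11, 12.20 and 12.27 in uninjured hearts, 1.50-fold lower (adjusted p = 0.000173), and its 3 probes gave log2 fold changes of -0.59, -0.68 and -0.20.

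Pgk1, the kinase that makes ATP in lower glycolysis, stood at 11.11, 11.03 and 11.12 in IR hearts and at 10.85, 10.90 and 10.94 in uninjured hearts. Its log2 fold change of 0.19 ± 0.07 passed (adjusted p = 0.0322), but a dim second probe gave -0.42. The Pgk1 value was -0.12 by the mean of its probes and -0.13 under kept-probe median scaling. The call was also lost without array A (0.18), C (0.17), D (0.17) or E (0.19) and with arrays A, B, D and E alone (0.20), within an adjusted p of 0.00111 to 0.452 over the alternatives. Pkm, the pyruvate kinase gene, stood at 11.37, 11.39 and 11.37 in IR hearts and at 11.51, 11.42 and 11.57 in uninjured hearts, a difference of -0.12 ± 0.07 that did not pass (adjusted p = 0.140). The probe values do not part the splice forms of Pkm.

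Phosphoglycerate mutase showed the isoform contrast in a pair of genes. Pgam2, the muscle form, stood at 9.89, 10.08 and 9.83 in IR hearts and at 12.43, 12.52 and 12.51 in uninjured hearts, 5.89-fold lower (log2 fold change -2.56 ± 0.08, adjusted p = 3.15e-07). Pgam1, the form of brain and most other tissues, stood at 8.69, 8.57 and 8.82 in IR hearts and at 7.12, 7.30 and 7.12 in uninjured hearts, 2.85-fold higher (1.51 ± 0.09, adjusted p = 4.29e-06). A second Pgam1 probe gave 1.49.

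Among enolases, Eno3, the muscle form, stood at 9.82, 10.05 and 9.84 in IR hearts and at 12.68, 12.77 and 12.76 in uninjured hearts. It was 7.12-fold lower (log2 fold change -2.83 ± 0.08, adjusted p = 2.17e-07). Eno2, the neuronal form, was at 5.12, 5.15 and 5.12 in IR hearts and at 4.54, 4.46 and 4.31 in uninjured hearts. No uninjured array detected it, so the filter had fixed its direction. Its adjusted p of 0.000124 (limma) belongs to the fit against undetected values. As a bound, it was at least 1.26-fold higher. For that bound, each uninjured array gave its lowest detected probe where this exceeded Eno2 itself. Eno2 lost its call under kept-probe median scaling (0.19, adjusted p = 0.0668), where the alternatives ran from 1.07e-05 to 0.0668. With no Eno1 probe listed, the nearest measurement was a probe annotated to Eno1b, a close relative of Eno1, looked up after the values were seen. It gave 6.82, 6.60 and 7.07 in IR hearts and 5.62, 5.45 and 5.43 in uninjured hearts (log2 fold change 1.33 ± 0.13, adjusted p = 4.92e-05), and whether it binds Eno1 transcripts was not tested.

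The lactate step gave no call. Ldha, the lactate dehydrogenase subunit that rises in many hypoxic cells, stood at 11.99, 11.92 and 11.90 in IR hearts and at 12.02, 12.05 and 12.03 in uninjured hearts. Its log2 fold change was -0.09 ± 0.06 (adjusted p = 0.212), with every IR value below every uninjured value. The Ldha value was 0.16 under all-probe median scaling and -0.50 under kept-probe median scaling (adjusted p = 0.000403, range over the alternatives 0.000403 to 0.525). The Ldhb probe, for the subunit usual in heart, was annotated to a clone accession and lay near background, at 4.77, 4.75 and 4.64 in IR hearts and 4.75, 5.15 and 4.82 in uninjured hearts (-0.19 ± 0.11, adjusted p = 0.176). Of the lactate transporters, Slc16a1 was undetected on all 6 arrays, and Slc16a3, at 4.65, 4.71 and 4.73 in IR hearts and 4.41, 4.84 and 4.45 in uninjured hearts, gave 0.13 ± 0.12 (adjusted p = 0.367) on a probe detected on 2 IR arrays and 1 uninjured array. Without array E the Slc16a3 value was 0.27 (adjusted p = 0.0122), and it was -0.46 under kept-probe median scaling (adjusted p = 0.00143), where the alternatives ran from 0.00143 to 0.804.

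Of 6 glycogen enzymes tested, 5 were lower and Pygl was higher, against 34.5% and 39.4% of all genes. Among the 5 is Phkg1, whose direction the filter had fixed. Glycogen phosphorylase releases glucose units from glycogen. Pygm, the muscle phosphorylase, stood at 5.02, 5.52 and 5.09 in IR hearts and at 8.55, 8.33 and 8.29 in uninjured hearts, 9.09-fold lower (log2 fold change -3.18 ± 0.15, adjusted p = 1.10e-06). Pygb, the brain phosphorylase, stood at 8.72, 8.87 and 8.76 in IR hearts and at 11.43, 11.25 and 11.59 in uninjured hearts (-2.64 ± 0.10, adjusted p = 4.91e-07). In contrast Pygl, the liver phosphorylase, which leukocytes also express, stood at 8.47, 8.50 and 8.63 in IR hearts and at 6.55, 6.41 and 6.48 in uninjured hearts. It was 4.15-fold higher (2.05 ± 0.07, adjusted p = 4.44e-07), and a second probe gave 1.90.

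Phosphorylase kinase switches the phosphorylase on. Phkg1, its muscle catalytic subunit, stood at 4.41, 4.31 and 4.58 in IR hearts and at 7.84, 7.29 and 7.80 in uninjured hearts. No IR array detected it, so the filter had fixed its direction. It was at least 7.99-fold lower, and its adjusted p of 1.53e-06 (limma) belongs to the fit against undetected values. Phka1, a regulatory subunit, was lower at 5.15, 5.03 and 4.97 in IR hearts, against 6.20, 5.97 and 6.68 in uninjured hearts (-1.24 ± 0.17, adjusted p = 0.000427). Gys1, the muscle glycogen synthase, stood at 4.75, 4.54 and 4.74 in IR hearts and at 5.67, 5.51 and 5.44 in uninjured hearts (-0.86 ± 0.09, adjusted p = 0.000103), and its second kept probe gave -0.68. Each of these Gys1 probes was detected on 2 IR arrays and 3 uninjured arrays. Both Gbe1 probes, for the branching enzyme, were undetected on all 6 arrays.

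**Figure D3:**
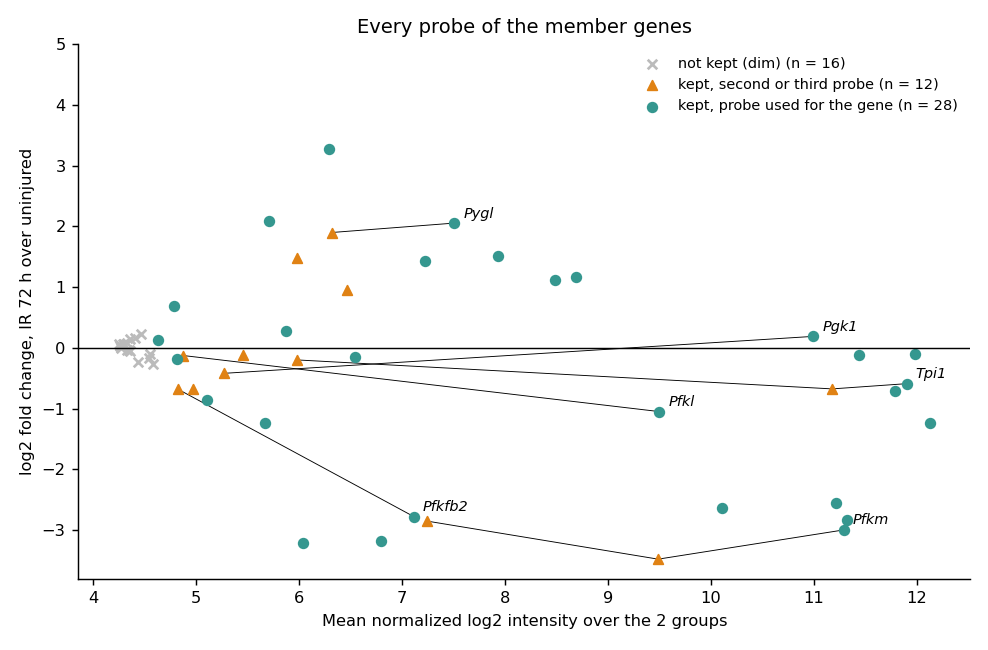
Log2 fold change (IR 72 h over uninjured, vertical axis) of all 56 probes of these genes against their mean normalized log2 intensity over both groups (horizontal axis). Circles are the 28 probes used for a gene, triangles 12 further kept probes and crosses 16 dim probes that were not kept, and lines join kept probes of 6 genes. Of 10 genes with more than 1 kept probe, 9 had probes of 1 direction, and Pgk1 had probes on both sides of 0.

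To set isoforms against each other, the log2 value of the second gene was subtracted from that of the first on each array and the 2 groups were compared. This shows unequal change within an array, not which isoform has more transcript. Of 16 pairs listed, 9 had both genes measured. With 3 arrays against 3 the smallest two-sided exact permutation p is 0.1, so no pair could pass 0.05. In 8 of the 9 pairs the groups did not overlap, each with an exact p of 0.1 (0.1125 after adjustment over the 9 pairs). Of all single genes tested, 76.7% did not overlap either. The share among other gene pairs was not counted, so this count is not shown to be particular to isoforms. Among the 8 is Eno2 minus Eno3, in which Eno2 was undetected on all uninjured arrays.

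Relative to the uninjured mean, Pfkp minus Pfkm stood at 4.18, 4.02 and 4.16 on the IR arrays and at -0.14, 0.36 and -0.22 on the uninjured arrays, a change of 4.12. Pgam1 minus Pgam2 stood at 4.10, 3.80 and 4.30 on the IR arrays, against 0.00020, 0.080 and -0.080 on the uninjured arrays. The mean changes were 4.07 for that pair, 1.95 for Pfkl minus Pfkm, and 4.21 for Pfkfb4 minus Pfkfb2, which was 2.79 without background correction. All 4 differences were shifted toward the gene that is not the muscle or heart form.

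Pygl minus Pygm changed by 5.24, with 5.37, 4.89 and 5.45 on the IR arrays and -0.093, -0.012 and 0.11 on the uninjured arrays. Without background correction that value was 3.40, below the 3.85 of Pfkp minus Pfkm and the 3.66 of Pgam1 minus Pgam2, so the order of the pairs depends on this step. Pygb minus Pygm changed by 0.54, but turned to -0.56 without background correction and with the authors' processed values, and to -0.17 with an offset of 50. Eno2 minus Eno3 changed by 3.52, or 3.17 with the undetected Eno2 at its bound. Slc2a3 minus Slc2a1 changed by -0.89, and Ldha minus Ldhb by 0.093 with overlapping groups (exact permutation p = 0.7, n = 3 per group).

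**Figure D4:**
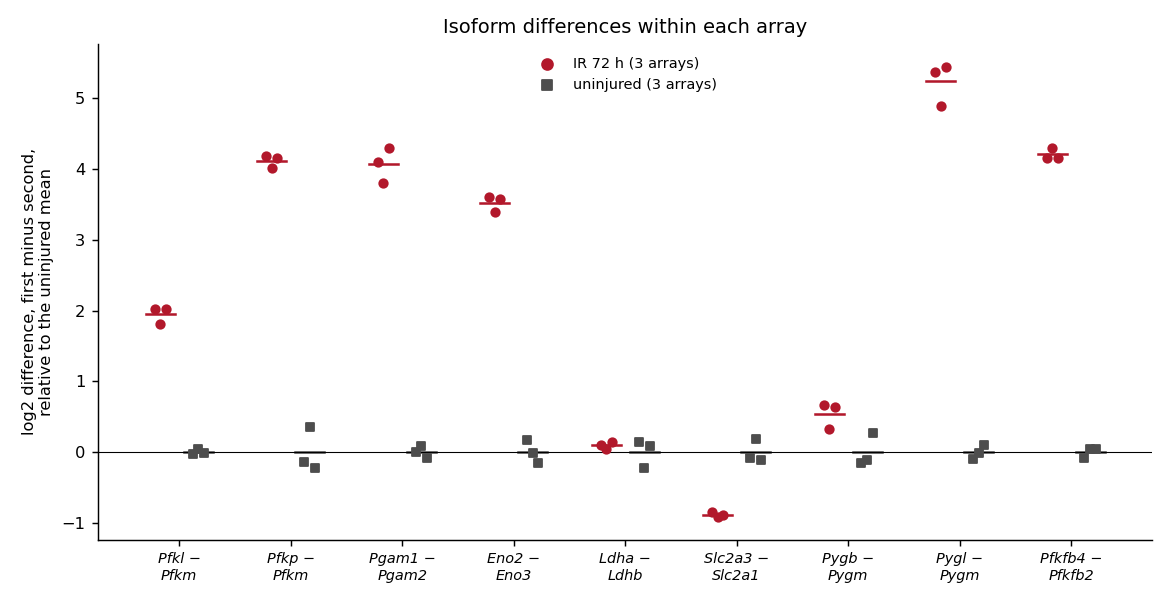
Log2 difference between 2 isoforms on each array, first minus second, relative to the mean of the uninjured arrays (vertical axis), for 9 isoform pairs, with IR 72 h hearts as red circles, uninjured hearts as grey squares (3 arrays each) and lines at the group means. Pygl minus Pygm stands at 5.24, a value that is 3.40 without background correction, and the groups overlap only in Ldha minus Ldhb.

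The promoters of 5 genes are shown because the paralogs Pgam1 and Pgam2 moved in opposite directions, Pfkp rose and Eno3 fell beside them, and Ldha held the most motif matches while its level was not called. Each line gives 300 bases from RefSeq (build GRCm38.p6), running 5′ to 3′ on the gene's strand from 250 before to 50 after its start. The windows are chr19:41911621-41911920 on the plus strand for Pgam1, chr11:5803747-5804046 on the minus strand for Pgam2, chr13:6648722-6649021 on the minus strand for Pfkp, chr11:70656926-70657225 on the plus strand for Eno3 and chr7:46845554-46845853 on the plus strand for Ldha. Capitals mark the core of the hypoxia response element, ACGTG or GCGTG, on either strand.
Pgam1: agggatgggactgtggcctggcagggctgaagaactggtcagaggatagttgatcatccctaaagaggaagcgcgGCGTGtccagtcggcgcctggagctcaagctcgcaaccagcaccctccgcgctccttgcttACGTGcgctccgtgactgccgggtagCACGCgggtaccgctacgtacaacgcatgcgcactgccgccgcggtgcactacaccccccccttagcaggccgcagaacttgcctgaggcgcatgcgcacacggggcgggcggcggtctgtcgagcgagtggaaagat
Pgam2: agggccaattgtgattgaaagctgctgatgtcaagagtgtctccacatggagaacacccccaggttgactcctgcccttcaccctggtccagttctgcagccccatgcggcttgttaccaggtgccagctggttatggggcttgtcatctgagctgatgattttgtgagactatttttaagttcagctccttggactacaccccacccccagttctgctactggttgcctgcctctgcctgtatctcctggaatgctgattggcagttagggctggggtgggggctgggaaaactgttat
Pfkp: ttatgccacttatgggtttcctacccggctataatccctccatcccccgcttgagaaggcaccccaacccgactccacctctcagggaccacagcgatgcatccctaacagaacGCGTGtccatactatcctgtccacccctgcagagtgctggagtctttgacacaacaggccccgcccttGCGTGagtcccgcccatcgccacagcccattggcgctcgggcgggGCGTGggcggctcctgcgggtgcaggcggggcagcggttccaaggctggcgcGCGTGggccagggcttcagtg
Eno3: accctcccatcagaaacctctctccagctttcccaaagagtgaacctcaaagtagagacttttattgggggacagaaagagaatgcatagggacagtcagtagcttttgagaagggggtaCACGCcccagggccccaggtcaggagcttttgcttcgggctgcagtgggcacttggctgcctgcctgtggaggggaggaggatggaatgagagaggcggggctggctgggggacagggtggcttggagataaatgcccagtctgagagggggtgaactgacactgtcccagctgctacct
Ldha: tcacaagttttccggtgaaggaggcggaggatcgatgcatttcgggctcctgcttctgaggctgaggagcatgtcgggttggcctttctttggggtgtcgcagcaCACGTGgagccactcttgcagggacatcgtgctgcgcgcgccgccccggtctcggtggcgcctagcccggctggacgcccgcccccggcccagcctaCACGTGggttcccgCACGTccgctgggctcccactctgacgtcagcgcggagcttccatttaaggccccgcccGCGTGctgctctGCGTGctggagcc
Pgam1 held 3 matches, Pfkp 4, Ldha 7, Eno3 1 and Pgam2 0. A CACGTG stretch counts as 2 overlapping matches, on opposite strands, as occurs 2 times in the printed Ldha window. These windows were picked as examples, and the count did not follow the direction of change throughout: Pfkm, which was lower, held 3, 2, 1 and 0 matches in its 4 windows, and Pfkfb2, also lower, held 4, 1 and 1. A second Ldha window held 2.

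RefSeq windows were matched for 35 of the 36 genes, all but Slc2a3. The hypoxia core lay in at least 1 window of 28 of the 35 (80.0%), against 46.7% of all 27025 genes with windows. By direction, 8 of 9 genes that were higher after IR held it, as did 9 of 13 genes that were lower. The windows of these genes were richer in G and C, with a median of 58.8% against 52.7% over all windows. No match says only that these letters are not in the window.

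Other genes of glucose handling gave the wider setting. A list of 53 genes covered glucose transport, other glycolysis genes, gluconeogenesis, glycogen, lactate and the pentose phosphate route. It also held the transcription factor genes Hif1a (log2 fold change 0.83, higher) and Epas1 (-1.14, lower), which are counted here. Of the 53, 29 were tested, of which 7 were higher and 17 lower, against 39.4% and 34.5% of all genes called in these directions. Their median log2 fold change was -0.68, against 0.05 for all genes. Under all-probe median scaling 12 were higher and 12 lower, against 6098 and 1775 of all 10204 genes. The medians under that scaling were -0.10 for this list and 0.52 for all genes. Slc2a4, the insulin-regulated transporter GLUT4, stood at 5.79, 6.02 and 5.95 in IR hearts and at 9.80, 9.72 and 9.76 in uninjured hearts, 14.3-fold lower (-3.84 ± 0.08, adjusted p = 1.03e-07). Fbp2, the muscle fructose bisphosphatase, was 14.0-fold lower (-3.81 ± 0.15). Ldhd, the D-lactate dehydrogenase of mitochondria, had a log2 fold change of -2.71, and the glycogen-targeting phosphatase subunits Ppp1r3c and Ppp1r3b had -2.00 and -1.62. Without background correction the values were -2.75 for Fbp2, -1.40 for Ldhd, -1.90 for Ppp1r3c and -0.94 for Ppp1r3b. Slc2a4 ran from -3.99 to -2.85 over the alternatives.

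The largest rise in that list was Emb, which encodes embigin, a membrane partner of lactate transporters. It stood at 9.06, 8.97 and 9.12 in IR hearts and at 4.84, 4.99 and 4.69 in uninjured hearts, 18.5-fold higher (4.21 ± 0.09, adjusted p = 1.09e-07). Emb was detected on 2 of 3 uninjured arrays, and its log2 fold change was 2.62 without background correction. The next log2 fold changes were those of Tkt (transketolase, 2.02 ± 0.06), H6pd (1.06 ± 0.07), Taldo1 (transaldolase, 0.99 ± 0.07) and Adpgk, an ADP-dependent glucokinase (0.90 ± 0.08). Tkt, H6pd and Taldo1 belong to the pentose phosphate route, whose other tested genes, added after their values were seen, did not rise: Rpe (-1.31) and Rpia (-0.23) were lower and Pgls (0.14) was not called.

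The size and, for some genes, the sign of a change depended on the scaling between arrays. Over all genes the median change was 0.05 with quantile normalization, 0.52 when each array was set to the median of all its probes and -0.14 when it was set to the median of kept probes, and over the members it was -0.17, 0.07 and -0.59. Of the members called, 43.5%, 45.8% and 29.2% were higher in these settings, against 53.3%, 77.5% and 42.7% of all genes called. Pfkm, Pgam2, Eno3, Pfkfb2, Pygm, Pygb and Pfkl were lower, and Slc2a1, Slc2a6, Hk3, Pfkp, Pfkfb4, Pgam1 and Pygl higher, in all 3. For Slc2a6 and Hk3 the filter had fixed that direction. Hk1, Pkm and Ldha turned above 0 under all-probe median scaling, and Pgk1 and Slc16a3 below 0 under kept-probe median scaling. Sizes of dim genes also hung on the background step: without it the log2 fold changes were 1.75 for Hk3, 0.94 for Slc2a6, -1.92 for Pygm, -1.82 for Pfkfb2 and -1.63 for Phkg1, with each call kept.

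**Figure D5:**
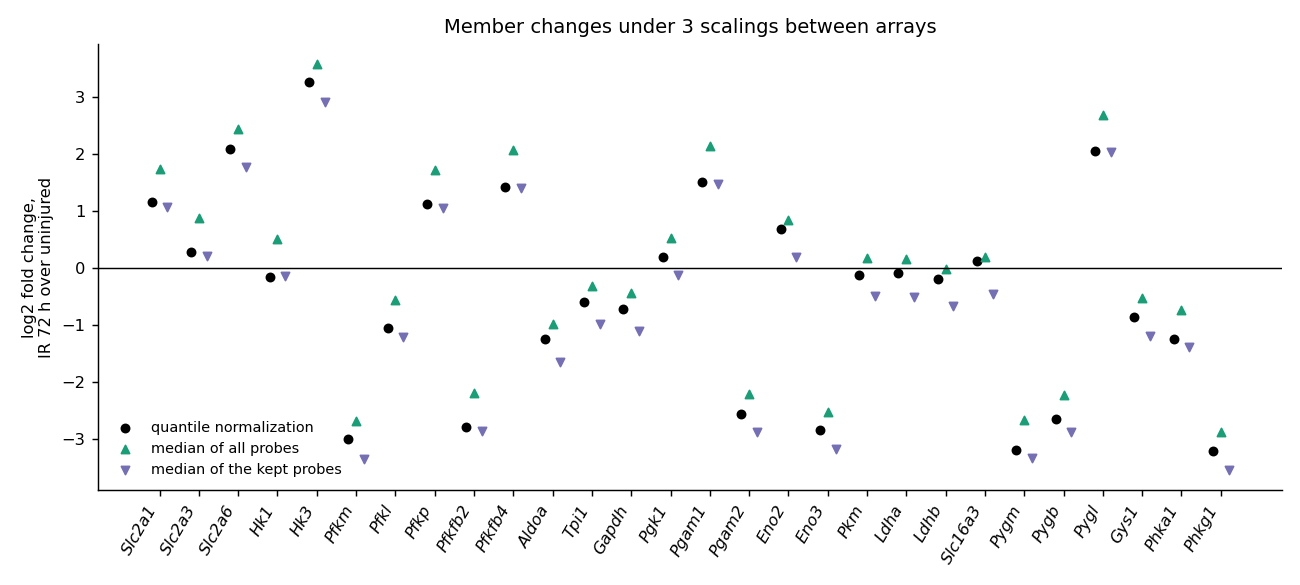
Log2 fold change (IR 72 h over uninjured, vertical axis) of the 28 tested genes under quantile normalization (black circles), all-probe median scaling (green triangles up) and kept-probe median scaling (purple triangles down). The shift between scalings moves genes near 0 across the line, such as Ldha at -0.09, 0.16 and -0.50, and leaves the sign of the large changes, such as Pfkm.

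Detected probes numbered 18013 to 19243 on the IR arrays and 15891 to 17843 on the uninjured arrays. Uninjured array F lay apart from the rest of its group on the second principal component (16.7, against -7.65 and -9.53). Without it 22 members were called in place of 23, and 7483 of all genes in place of 7545. The column numbers of arrays A, B, D and E lie close together, as do those of C and F, and what they stand for is not stated. The log2 fold changes of all 28 members had the same sign in both sets of arrays, for example -2.95 and -3.09 for Pfkm and 1.42 and 1.70 for Pgam1. The second set holds a single array of each group. The share of all genes with the same sign in both sets was not counted, so this is not shown to be particular to the members.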

How the data were processed

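Illumina bead arrays of total RNA, 3 per group, were used. Per the submitters' processing notes, GenomeStudio 2010.3 was used. Per the file headers, the deposited table gives the mean bead intensity of 45281 probes and a detection p-value, with no background subtraction or normalization as read from the values. The authors' processed intensities, quantile-normalized on a linear scale as read from their values, were an alternative only.

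Signals were background-corrected, offset by 16, quantile-normalized and log2-transformed with neqc (limma 3.58.1, R 4.3.3, statmod 1.5.0). Probes with a detection p-value under 0.05 on at least 3 of 6 arrays were kept (18197). Symbols came from the platform annotation, updated by Entrez identifier through RefSeq (GRCm38.p6, names only). Of all probes, 34885 had 1 symbol, 18 several and 10378 none. The brightest kept probe stood for a gene. Groups were compared with lmFit and eBayes, without a block, with Benjamini-Hochberg adjustment over 10204 genes at 0.05. Values of further probes are adjusted over all kept probes. A planned promoter pattern for MEF2 was too loose for that factor and is not reported. Steps were tested on simulated data. Named were all members and, of the other pathway genes, the 5 largest increases and 5 largest decreases among called genes whose groups did not overlap. The members and lists were chosen with earlier results of these data known. Endothelial markers (1 of 3 tested higher, 1 lower), erythroid markers (3 of 3 lower) and dividing cell markers (2 of 2 higher) were also read.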

Additional observations from a re-analysis of the deposited data

How the results depend on the processing

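Across 17 alternatives, 20 of the 28 members kept their call and direction wherever they could be tested, as did all 10 named genes of the wider list. The exceptions were Slc2a3, Hk1, Pgk1, Eno2, Pkm, Ldha, Ldhb and Slc16a3. All-probe median scaling gave 6098 higher and 1775 lower genes in place of 4022 and 3523, and 12 higher genes of the wider list in place of 7. Under that scaling the values were 0.52 for Hk1, 0.16 for Ldha and 0.18 for Pkm. Kept-probe median scaling gave -0.13 for Pgk1 and -0.46 for Slc16a3, and the mean of the kept probes gave -0.12 for Pgk1. Pygb minus Pygm turned to -0.56 without background correction, -0.56 with the authors' values and -0.17 with an offset of 50. Ldha minus Ldhb turned to -0.031, -0.024 and -0.0057 in the same settings and ran from -0.018 to 0.18 as arrays were left out. The cause of these reversals was not tested. Member calls ran from 21 to 23 of 28 as arrays were left out, against 7055 to 7559 of all 10204 genes. They were 18 when detection on all 6 arrays was required, which leaves fewer genes to test. Of all genes, 6262 of 8054 were called in that setting. Eno2, Ldhb, Slc16a3 and Gys1 lie near background, which limits what their values can show.

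The replicate numbers of the titles are tied only to the authors' processed columns. Same-numbered arrays did not deviate together (r of -0.036, -0.011 and -0.071 for replicates 1, 2 and 3). Over all cross-group combinations of arrays, r ran from -0.071 to 0.054. Deviations were taken from group means of 3 arrays, which constrains these values, so the check cannot exclude a pairing. With a replicate block in those values, 22 members and 7438 of all genes were called, against 22 and 7534 without the block.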
